A study of Canis lupus familiaris with 22 samples.

Results

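The genes described here are 7 genes known for mast cells: FCER1A and MS4A2, which encode the alpha and beta subunits of the high-affinity IgE receptor, the granule proteases CPA3 (carboxypeptidase A3) and CMA1 (chymase), HDC, the enzyme that makes histamine, the receptor tyrosine kinase KIT and the transcription factor GATA2. They were chosen by name, with earlier results of these data known. Every probe set whose platform annotation gave one of them as its only symbol was taken. All 7 of the 15115 genes named in the table were found, through 12 of 42924 probe sets. FCER1A had 3 probe sets, MS4A2, CMA1 and KIT had 2 each, and CPA3, HDC and GATA2 had 1 each.

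Mast cells are tissue-resident immune cells that carry IgE on their surface and store proteases, histamine and heparin in granules. They mature in the tissue under the KIT receptor and its ligand, and in the bladder they lie in the lamina propria and between the bundles of the detrusor muscle. Cross-linking of the IgE receptor releases the granules, and in dogs mast cell tumours, some of them with mutated KIT, are a common skin cancer.

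Affymetrix arrays of the dog genome were run on 18 iUC samples (high grade invasive urothelial carcinoma that arose naturally in pet dogs, biopsied by cystoscopy before therapy) and on 4 normal bladder samples from healthy, age matched dogs without tumours, with 1 array for each dog. Each value is a log2 value that the authors centred on the median of its probe set over the 22 arrays. Such a value gives the distance of a sample from that median and no expression level, so genes cannot be ranked by level. Probe sets of 1 gene were averaged. A gene was called at an adjusted p of 0.05 or below (limma, Benjamini-Hochberg over all 15115 genes) together with a 2-fold change, the thresholds of the study.

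Several features of the arrays bear on these genes. In 7 iUC arrays the 17 Tag control probe sets (artificial sequences that no dog transcript matches) averaged 0.277 to 0.46, against -0.128 to 0.131 in the other 11 iUC arrays and -0.215 to -0.0768 in the normal arrays. The arrays of the first kind are called iUC arrays of high Tag signal here. The closest normal bladder samples were replicates 3 and 4 (Pearson's r of 0.934 over the probe sets), ahead of replicates 2 and 3 (0.761). The sample labels end in 2 forms, 1 shared by all iUC samples and normal bladder replicate 1, the other by normal bladder replicates 2, 3 and 4. The mean of 12 smooth muscle genes was -0.689 to 1.5 in iUC and 4.11, 3.03, 4.38 and 4.72 in normal bladder replicates 1 to 4, while 15 urothelium genes averaged -1.27 to 0.669 in the iUC samples and -0.594, -0.175, -1.85 and -3.38 in the normal samples. Their part in the results below was not tested. In samples of whole tissue, fewer mast cells and less RNA per mast cell cannot be told apart.

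FCER1A and CPA3 were 5.10-fold and 3.82-fold lower in iUC than in normal bladder, and no member was called higher. MS4A2 and CMA1 were lower at the adjusted p, by 1.95-fold and 1.53-fold, and did not reach the fold change of 2. Thus 2 of 7 members were called lower, where 8.64% of all genes were, and 0 of 7 were called higher, where 3.68% were. On the adjusted p alone 4 of 7 were lower, against 17.5% of all genes. Of the 12 probe sets 4 were called lower, against 10.7% of all probe sets. The median log2 fold change of the 7 was -0.61, and that of all genes was 0.08. CPA3 and FCER1A belong to the list of genes that the study selected partly on these samples, so their direction is not independent evidence.

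**Figure D1:**
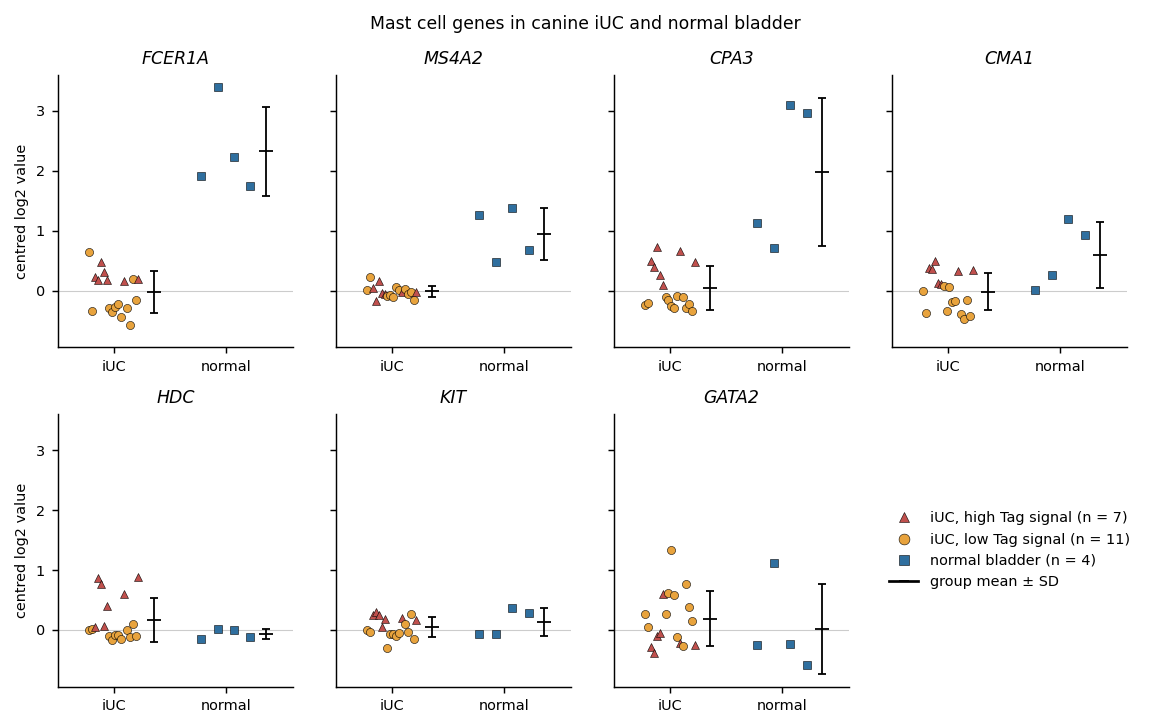
Centred log2 value (y axis) of each mast cell gene in the 18 iUC samples, split by Tag control signal, and in the 4 normal bladder samples. Points are samples and bars the group mean with its SD. FCER1A and MS4A2 lie lower in every iUC sample than in any normal sample, as 4.47% of all genes do. CPA3 lies below all normal samples in 17 of 18 iUC samples, and the other 4 genes overlap between the groups.

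The alpha subunit binds IgE itself, and its gene FCER1A showed the largest difference among the members. Its gene value ran from -0.57 to 0.64 in the iUC samples, with a median of 0.00, against 1.92, 3.40, 2.24 and 1.75 in normal bladder replicates 1 to 4. The groups did not overlap: all 18 iUC samples lay below the lowest normal sample, as they did for 4.47% of all genes. The mean was -0.02 ± 0.35 in iUC (SD, n = 18) and 2.33 ± 0.74 in normal bladder (SD, n = 4). The log2 fold change was -2.35 (standard error 0.23, adjusted p = 1.31e-07 from limma). With quantile normalization it was -1.74 (adjusted p = 0.000599), still called. It was -2.52 without the iUC arrays of high Tag signal (adjusted p = 9.55e-06, a setting that called 5.96% of all genes lower). Blocking on the label ending, a fit that leaves normal bladder replicate 1 alone against the iUC samples, gave -1.94 (adjusted p = 0.00829, with 2.57% of all genes called lower).

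The 3 probe sets of FCER1A did not move alike, and the gene value averages over them. One, whose identifier ends in s_at, ran from -0.29 to 1.15 in the iUC samples, against 4.05, 6.30, 4.31 and 3.72 in the normal samples. Another ran from -1.27 to 0.80 in the iUC samples, against 1.70, 3.97, 2.36 and 1.59 in the normal samples. Both separated the groups without overlap, as 4.47% of all genes did by gene value. Their log2 fold changes were -4.56 (standard error 0.29) and -2.74 (standard error 0.36). The third ran from -0.18 to 1.31 in the iUC samples, against 0.01, -0.07, 0.04 and -0.05 in the normal samples. It was not called (log2 fold change 0.25, 95% interval -0.17 to 0.66, adjusted p = 0.326), and its 7 highest iUC values, 0.45 to 1.31, were those of the arrays of high Tag signal. The cause was not tested, and probe sequences were not used here. With the most variable probe set in place of the mean, the fall of FCER1A was 4.56 on the log2 scale, or 23.6-fold.

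**Figure D2:**
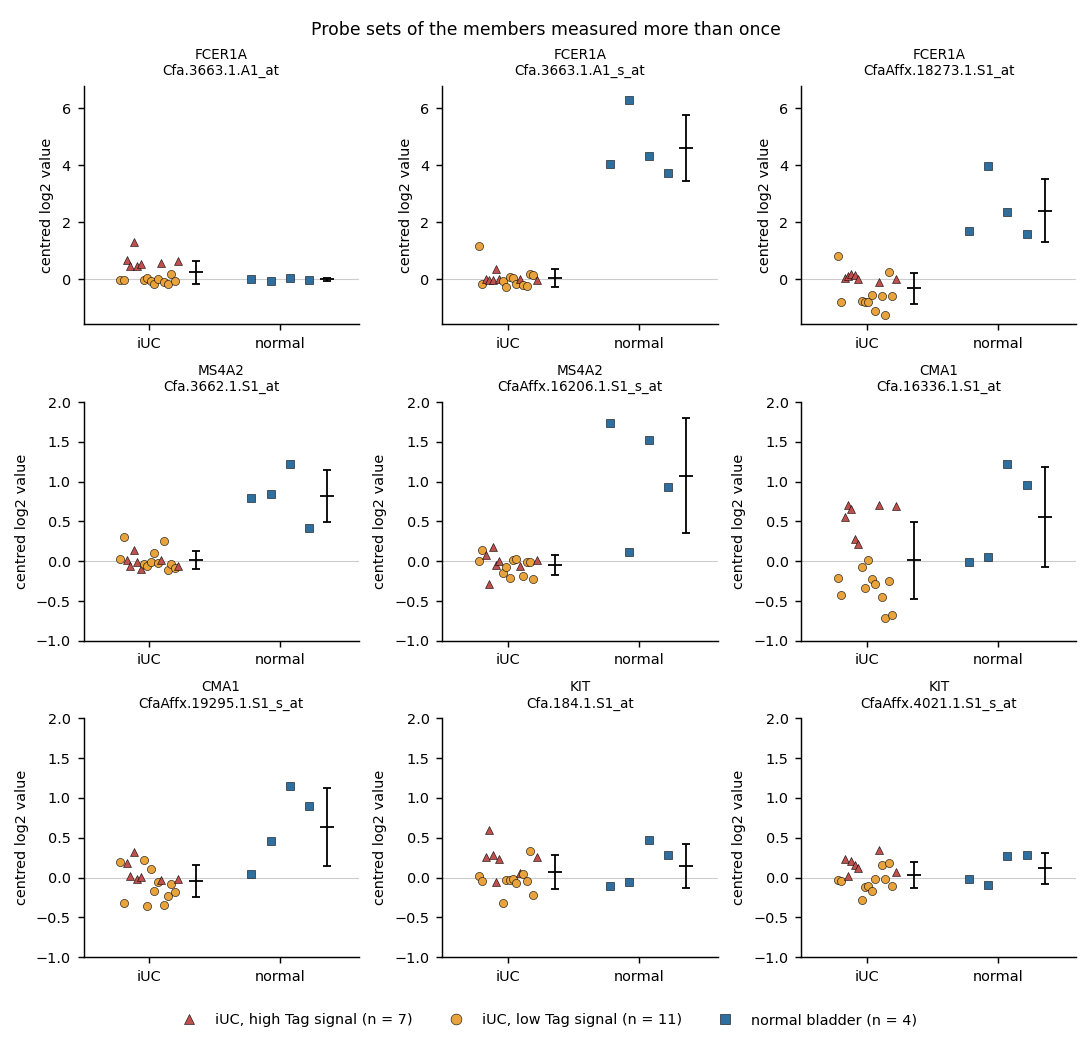
Centred log2 values (y axis) of each probe set of FCER1A, MS4A2, CMA1 and KIT by group, with the mean and SD of each group; the 3 FCER1A panels share 1 scale and the other 6 another. FCER1A is far lower in iUC by 2 probe sets, and in the third all 4 normal samples lie near 0.

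Among the normal dogs, replicate 2 had the highest FCER1A value by both responding probe sets. Among the tumours, iUC replicate 1 was the highest by the same probe sets, at 1.15 and 0.80, and the next iUC sample lay at 0.34 and 0.24. The other members did not single out iUC replicate 1: its CPA3 value was -0.24.

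The beta subunit gene MS4A2 amplifies the signal of the receptor and is one of the most restricted genes of mast cells and basophils in humans. It ran from -0.17 to 0.22 in the iUC samples, with a median of -0.02, against 1.26, 0.48, 1.37 and 0.68 in normal bladder replicates 1 to 4. Again no iUC sample reached the lowest normal sample, as in 4.47% of all genes. The mean was -0.01 ± 0.10 in iUC (SD, n = 18) and 0.95 ± 0.44 in normal bladder (SD, n = 4), a log2 fold change of -0.96 (standard error 0.11, adjusted p = 1.09e-06 from limma). The SD of the iUC samples of low Tag signal was 0.103, against a median of 0.21 over all genes.

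The 2 probe sets of MS4A2 lay on either side of the fold threshold. The first ran from -0.11 to 0.31 in the iUC samples, against 0.79, 0.84, 1.22 and 0.42 in the normal samples (log2 fold change -0.80, adjusted p = 2.57e-06). The other ran from -0.28 to 0.18 in iUC, against 1.73, 0.11, 1.52 and 0.94 in normal bladder (log2 fold change -1.12, adjusted p = 3.27e-05), and normal bladder replicate 2 lay within the range of the tumours by this probe set. The gene was called lower without normal bladder replicate 2 (log2 fold change -1.12) or replicate 4 (-1.05). Without replicate 1 it was at -0.86, without replicate 3 at -0.82 and with quantile normalization at -0.67, short of a 2-fold change in each. Under the block on label ending it was at -1.28. Unlike CPA3 and CMA1, MS4A2 did not part the iUC arrays by Tag signal: it averaged -0.01 in the arrays of high Tag signal and -0.02 in those of low Tag signal.

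The granule proteases were lowest in the tumours relative to normal bladder replicates 3 and 4. CPA3, an exopeptidase stored with heparin, ran from -0.35 to 0.73 in the iUC samples, with a median of -0.11, against 1.13, 0.71, 3.10 and 2.96 in normal bladder replicates 1 to 4. Of the 18 iUC samples, 17 lay below the lowest normal sample, and iUC replicate 5, an array of high Tag signal, lay above it. The mean was 0.04 ± 0.36 in iUC (SD, n = 18) and 1.98 ± 1.23 in normal bladder (SD, n = 4), a log2 fold change of -1.93 (standard error 0.31, adjusted p = 7.49e-05 from limma).

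The size of the CPA3 difference rested on normal bladder replicates 3 and 4. Without these 2 samples it was -0.88 (adjusted p = 0.0482), below the fold threshold, in a setting that called 3.24% of all genes lower, and without the iUC arrays of high Tag signal as well it was -1.14 (adjusted p = 1.38e-05). Under the block on label ending it was -1.09 (adjusted p = 0.536). Quantile normalization gave -1.26 (adjusted p = 0.00344), still called. Leaving out a single normal sample gave -2.36 to -1.56, each called.

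CMA1 encodes the serine protease chymase, which in dogs as in humans is a major granule protein of one class of mast cells. It ran from -0.47 to 0.49 in the iUC samples, with a median of 0.03, against 0.02, 0.26, 1.19 and 0.93 in normal bladder replicates 1 to 4, so that replicates 1 and 2 lay within the range of the tumours. The log2 fold change was -0.61 (standard error 0.19, adjusted p = 0.0194). Its probe sets gave -0.55 (adjusted p = 0.118) and -0.68 (adjusted p = 0.00128). Without normal bladder replicates 3 and 4 the difference was -0.15 (adjusted p = 0.681), and without replicate 3 or replicate 4 alone it was -0.42 and -0.50, neither passing the adjusted p (0.143 and 0.103).

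The proteases and FCER1A ordered the normal dogs differently. CPA3 and CMA1 were highest in normal bladder replicate 3 and next in replicate 4, and MS4A2 was also highest in replicate 3. FCER1A was highest in replicate 2, which had the lowest CPA3 and MS4A2 gene values of the normal samples. For MS4A2 the order depended on the probe set. By the first, replicate 4 was lowest (0.42) and replicate 2 was at 0.84. By the other, replicate 1 was highest (1.73) and replicate 2 lowest (0.11). Like CPA3 and CMA1, the smooth muscle and endothelium means were highest in replicates 3 and 4. Their part in the order of the normal dogs was not tested. With 4 normal samples the order is a description only.

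**Figure D3:**
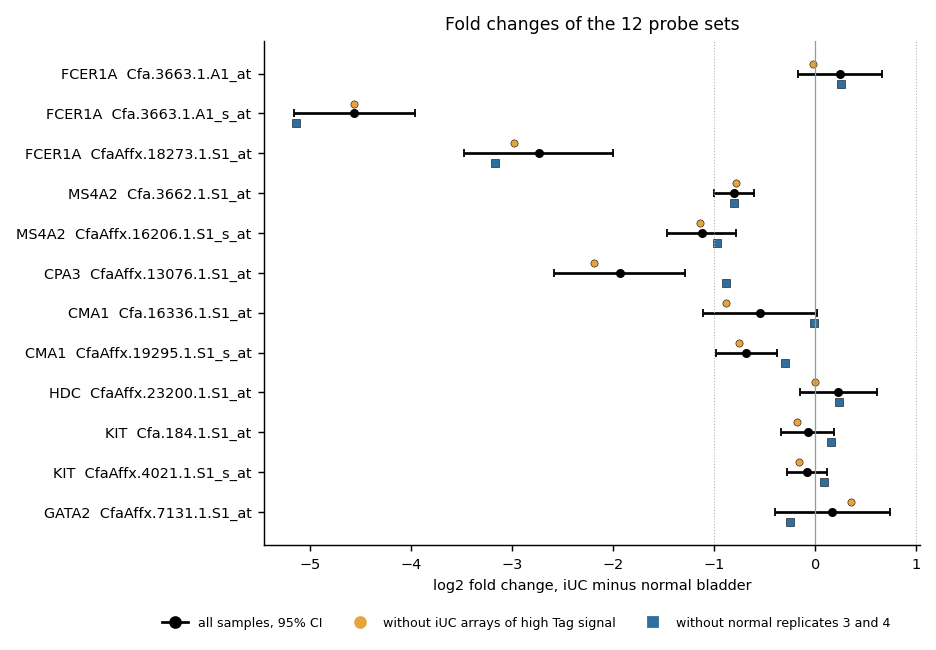
Log2 fold change (x axis, iUC minus normal bladder) of each of the 12 probe sets, with its 95% interval from limma over all samples. Smaller symbols give the value without the iUC arrays of high Tag signal or without normal bladder replicates 3 and 4; dotted lines mark a 2-fold change. CPA3 moves to -0.88 without normal bladder replicates 3 and 4, whereas 2 probe sets of FCER1A stay past the 2-fold line in both.

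HDC, KIT and GATA2 overlapped between the groups and passed neither threshold. HDC, which makes histamine in mast cells and basophils, ran from -0.17 to 0.88 in the iUC samples, with a median of 0.01, against -0.15, 0.01, 0.00 and -0.12 in normal bladder replicates 1 to 4. Its log2 fold change was 0.23 (95% interval -0.15 to 0.61, adjusted p = 0.322). The 7 iUC arrays of high Tag signal lay between 0.04 and 0.88 and the other 11 ranged over -0.17 to 0.09, and without the arrays of high Tag signal the difference was 0.00 (adjusted p = 0.983).

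KIT ran from -0.30 to 0.31 in the iUC samples, with a median of 0.02, against -0.06, -0.08, 0.37 and 0.29 in normal bladder replicates 1 to 4. The ranges overlapped, and the log2 fold change was -0.08 (95% interval -0.29 to 0.14, adjusted p = 0.555). Both probe sets gave -0.08. KIT passed the adjusted p with array weights (-0.31, adjusted p = 0.00182) and with the Tag control mean as a covariate, added once the values were known (-0.26, adjusted p = 0.0247). It stayed short of a 2-fold change in both. KIT is also carried by interstitial cells of Cajal and melanocytes. Where 8.64% of all genes were called lower and 3.68% higher, 0 of 9 marker genes of these cells were called. Their mean was -0.184 to 0.442 in iUC and -0.217, 0.0189, 0.00758 and 0.0918 in the normal samples.

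GATA2, a transcription factor of mast cells that endothelium also uses, ran from -0.38 to 1.34 in the iUC samples, with a median of 0.10, against -0.24, 1.12, -0.23 and -0.59 in normal bladder replicates 1 to 4. It was highest in iUC replicate 10 and in normal bladder replicate 2. The log2 fold change was 0.17 (95% interval -0.40 to 0.74, adjusted p = 0.627), and it was 0.54 without normal bladder replicate 2 and -0.25 without replicates 3 and 4, neither of them called. Of 10 endothelial genes, KDR, CLDN5 and EMCN were called lower, where 8.64% of all genes were, and none of the 3 was called under quantile normalization, under the block on label ending or without normal bladder replicates 3 and 4. The mean of the 10 was -0.46 to 1.55 in iUC, against 0.282, 0.281, 1.37 and 1.49 in normal bladder.

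Within the tumours the gene values of CPA3 and CMA1 parted the arrays by Tag control signal. CPA3 lay between 0.10 and 0.73 in the 7 iUC arrays of high Tag signal and between -0.35 and -0.10 in the other 11, without overlap, and CMA1 lay between 0.12 and 0.49 against -0.47 to 0.07. Such a separation by gene value, with the arrays of high Tag signal above, was found in 2 of 7 members and in 15.9% of all genes. The CMA1 probe sets differed in this. The first lay between 0.22 and 0.71 in the arrays of high Tag signal, against -0.71 to 0.01. The other overlapped, at -0.03 to 0.32 against -0.35 to 0.22. The means of HDC, FCER1A and KIT were higher by 0.58, 0.44 and 0.24 in the arrays of high Tag signal, that of GATA2 was lower by 0.46, that of MS4A2 differed by 0.00, and the median over all genes was -0.01. By probe set FCER1A differed by -0.002 in the one that ends in s_at, and by 0.63 and 0.70 in the others. The samples and the arrays cannot be told apart here, and the spread of the members among tumours cannot be read apart from that control signal.

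**Figure D4:**
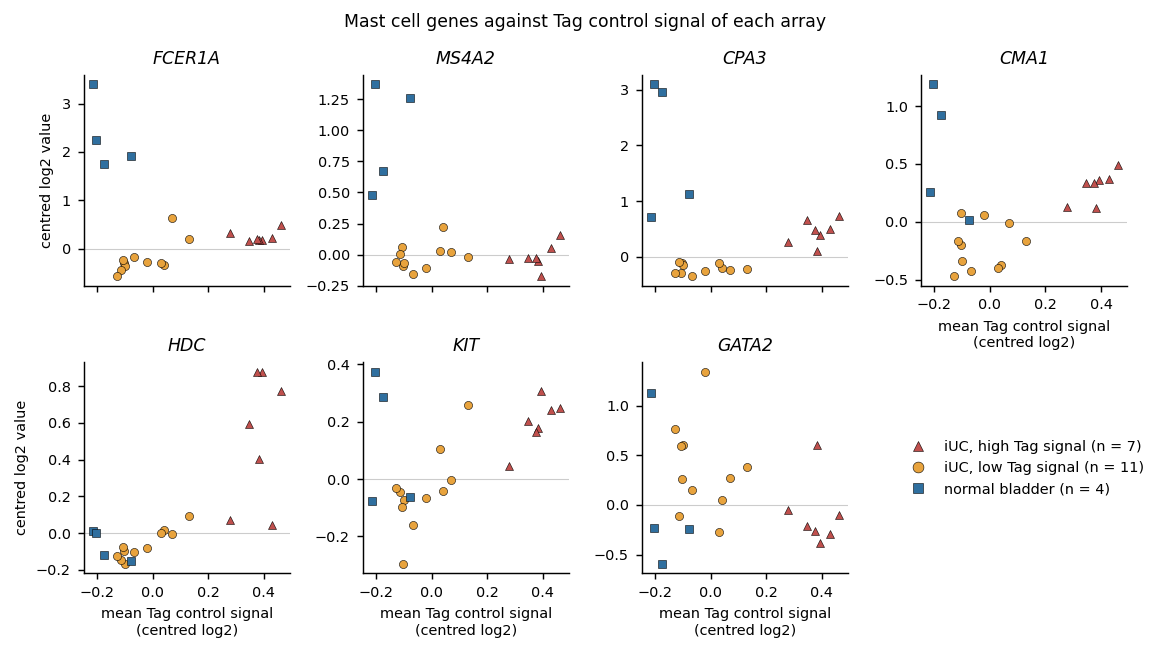
Centred log2 value of each member (y axis, own scale for each gene) against the mean Tag control signal of the array (x axis, centred log2). Each point is 1 of 22 arrays. The 7 iUC arrays at the right lie above the other iUC arrays in CPA3 and CMA1, and hold the highest HDC values, and MS4A2 does not follow the control signal.

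For this reason the members were set against each other only within each kind of array. In the 11 iUC samples of low Tag signal the Pearson correlations of the 21 pairs ran from -0.46 to 0.68, with a median of 0.04. None passed the threshold after Benjamini-Hochberg adjustment by permutation test, and 1 did before adjustment. This was KIT with HDC (r = 0.68, permutation p = 0.0205, adjusted p = 0.430, Spearman's rho = 0.55 with permutation p = 0.0818). The pair was at r = 0.52 without the 2 samples farthest from the median of KIT. In every pair these 2 samples were chosen by the first gene named, and the second gene was not considered. The granule pair CPA3 and CMA1 had r = 0.23 (permutation p = 0.492, rho = 0.30 with permutation p = 0.369). Without the 2 farthest samples that pair was at r = 0.03. In the 7 iUC samples of high Tag signal the 21 correlations ran from -0.67 to 0.89, with a median of 0.37, and again none passed after adjustment and 2 did before. The granule pair had r = 0.89 (exact permutation p = 0.0159, adjusted p = 0.333; rho = 0.75 with exact permutation p = 0.0663), and r = 0.67 without the 2 farthest samples. MS4A2 and FCER1A had r = 0.77 (exact permutation p = 0.0464, adjusted p = 0.469; rho = 0.50 with exact permutation p = 0.267), and r = 0.13 without the 2 farthest samples. All tests were two-sided.

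The genes most like the mean of CPA3, MS4A2 and HDC over the 18 iUC samples, with the mean of each kind of array taken away, were GLRA4, KIF18B, RIMS1, GPR31, OPRK1, ABI3BP, FGF14, RFX7, OR56A3 and SAMD3, at Pearson's r of 0.94 to 0.84. None of them stands in the lists of mast cell genes used here. In the 11 samples of low Tag signal alone, 0 of these 10 were again among the 10 most alike. Of 15112 genes set against this mean, KIT ranked 3055 (r = 0.38), CMA1 3116 (r = 0.37), FCER1A 6533 (r = 0.15) and GATA2 13994 (r = -0.40). CPA3, MS4A2 and HDC entered the mean unscaled, so the gene of widest spread weighed most. In the arrays of high Tag signal HDC ran from 0.04 to 0.88, CPA3 from 0.10 to 0.73 and MS4A2 from -0.17 to 0.16. With the same means taken away, MS4A2 and HDC had r = 0.01 over the 18 samples.

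Genes around the mast cell were read from 6 lists of its pathways, chosen from general knowledge but with earlier results of these data known. Of 80 measured genes, 13 were called lower (16.2%, against 8.64% of all genes) and 2 higher (2.5%, against 3.68%). Of these 15 calls, 9 remained without normal bladder replicates 3 and 4 and 6 under the block on label ending. With quantile normalization 12 of the 15 remained, without FYN, PRKCB and PTPN11. The median log2 fold change of the 80 genes was 0.04 and that of all genes 0.08. KITLG, IL33, LMO2, ZEB2, PTGDS, PTGS1, P2RX1, RGS18, RAB27A and PRKCB also stand in the list the study chose partly on these samples. Tryptase genes, the most abundant mast cell products, are not among the genes analysed here.

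KIT ligand and the interleukin that alerts mast cells were lower in the tumours. KITLG, the stem cell factor on which mast cells depend, ran from -0.44 to 0.69 in the iUC samples, against 0.20, 2.01, 1.90 and 1.77 in normal bladder replicates 1 to 4, with a log2 fold change of -1.51 (standard error 0.22, adjusted p = 3.26e-05). IL33, an alarm signal of epithelium, endothelium and stroma, ran from -0.25 to 2.07 in the iUC samples, against 0.45, 1.83, 4.17 and 3.75 in the normal samples, and fell by 2.36 (standard error 0.45, adjusted p = 0.000475). Normal bladder replicate 1 lay within the range of the tumours in both genes, and replicate 2 in IL33. Under the block on label ending, which leaves only that sample, KITLG was at -0.24 and IL33 at -0.26, and neither was called. Without normal bladder replicates 3 and 4 KITLG stayed called at -1.14 and IL33 did not, at -0.95. IL33 was at -3.06 without normal bladder replicate 1 and at -1.36 with quantile normalization, called in both. IL1RL1, the receptor of IL-33, was at 0.68 (standard error 0.27, adjusted p = 0.0548).

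Of 16 genes of KIT signalling and mast cell transcription, 4 were called lower and none higher, where 8.64% and 3.68% of all genes were. Besides KITLG, the genes called lower were ZEB2, LMO2 and the phosphatase gene PTPN11. ZEB2, a repressor that stromal cells use as well, ran from -0.40 to 0.74 in the iUC samples, against 2.67, 2.54, 3.89 and 4.22 in the normal samples, and fell by 3.25 (adjusted p = 7.19e-09). LMO2, a partner of GATA factors in blood and endothelial cells, fell by 1.66. PTPN11 fell by 1.05 and lost its call without normal bladder replicate 3 (-0.66) or without the iUC arrays of high Tag signal (-0.83). It also lost its call with quantile normalization (-0.60). MITF, the melanocyte and mast cell regulator, was at -0.74 (adjusted p = 0.0173) and short of a 2-fold change.

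Of 17 genes of IgE receptor signalling, FYN and PRKCB were called lower, where 8.64% of all genes were, and 15 were not called. FYN, a kinase of the SRC family, fell by 1.40 and lost its call without normal bladder replicate 3 (-1.15) or without the iUC arrays of high Tag signal (-1.18). PRKCB, a protein kinase C of leukocytes, fell by 1.10 and was at -0.65, not called, without normal bladder replicate 1. With quantile normalization FYN was at -0.73 (adjusted p = 0.302 from limma) and PRKCB at -0.78, and neither was called. FCER1G, the gamma chain that FCER1A shares with other Fc receptors of myeloid cells, ran from -0.38 to 0.56 in the iUC samples, against 2.51, -0.14, -0.13 and -0.38 in normal bladder replicates 1 to 4. It stood out in replicate 1 and not in the other 3, and its log2 fold change was -0.45 (adjusted p = 0.23). SYK, the kinase recruited by the receptor, had the same sample on top, at 2.05, against -0.45, 0.07 and -0.29 in the other normal samples. The mean of 6 neutrophil genes was -1.04 to 0.973 in iUC, against 1.61, 0.323, 0.566 and 0.141 in normal bladder replicates 1 to 4. That of 10 macrophage genes was -0.793 to 0.775 in iUC, against 1.22, 0.392, 0.488 and 0.104 in the normal samples. Their part in these values was not tested.

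In the eicosanoid list PTGS1 and PTGDS were called lower and PLA2G4A higher, where 8.64% and 3.68% of all genes were. The other 5 genes were not called. PTGS1, cyclooxygenase 1, which smooth muscle also expresses, ran from -1.59 to 1.70 in the iUC samples, against 2.84, 2.20, 3.80 and 4.16 in the normal samples, and fell by 3.48. PTGDS, a prostaglandin D synthase that is not the haematopoietic one, fell by 2.81 with no overlap between the groups, as in 4.47% of all genes. HPGDS, the haematopoietic enzyme by which mast cells make prostaglandin D, was at -0.13 (95% interval -0.30 to 0.04, adjusted p = 0.221). PLA2G4A rose by 1.07 (adjusted p = 0.0464) and lost its call whichever normal sample was left out, at 0.98 to 1.15.

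Among 21 surface receptors and cytokines, C5AR1, P2RX1, RGS18 and IL33 were called lower and none higher, where 8.64% and 3.68% of all genes were. C5AR1, the receptor of complement C5a on myeloid cells and mast cells, ran from -0.29 to 0.28 in the iUC samples, against 4.51, 1.16, 1.42 and 0.85 in the normal samples, and its fall of 1.99 became 1.15 without normal bladder replicate 1. P2RX1, an ATP-gated channel of bladder smooth muscle, platelets and mast cells, fell by 1.98, and by 1.35 without normal bladder replicates 3 and 4. RGS18, a regulator of G protein signalling in blood cells, fell by 1.62, and by 1.20 without normal bladder replicate 1. All 4 histamine receptor genes lay between -0.00 and 0.44 and none was called, HRH3 at 0.44 passing the adjusted p alone (0.018).

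Of 14 granule and amine genes, RAB27A was called lower and CTSD higher, where 8.64% and 3.68% of all genes were. RAB27A, which docks secretory granules, ran from -1.17 to 0.82 in the iUC samples, against 0.77, 1.73, 1.59 and 1.66 in the normal samples, and fell by 1.70. Without normal bladder replicates 3 and 4 it was at -1.51 and not called (adjusted p = 0.0571). CTSD, a protease of all lysosomes, rose by 1.61 and was at 0.95, not called, without normal bladder replicate 4. SLC18A2, the transporter that loads histamine into granules, was at -0.52 (adjusted p = 0.0104) and short of a 2-fold change. It ran from -0.25 to 0.47 in the iUC samples, against 0.01, 0.51, 0.98 and 1.08 in normal bladder replicates 1 to 4, and like CPA3 and CMA1 was highest in replicates 3 and 4.

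**Figure D5:**
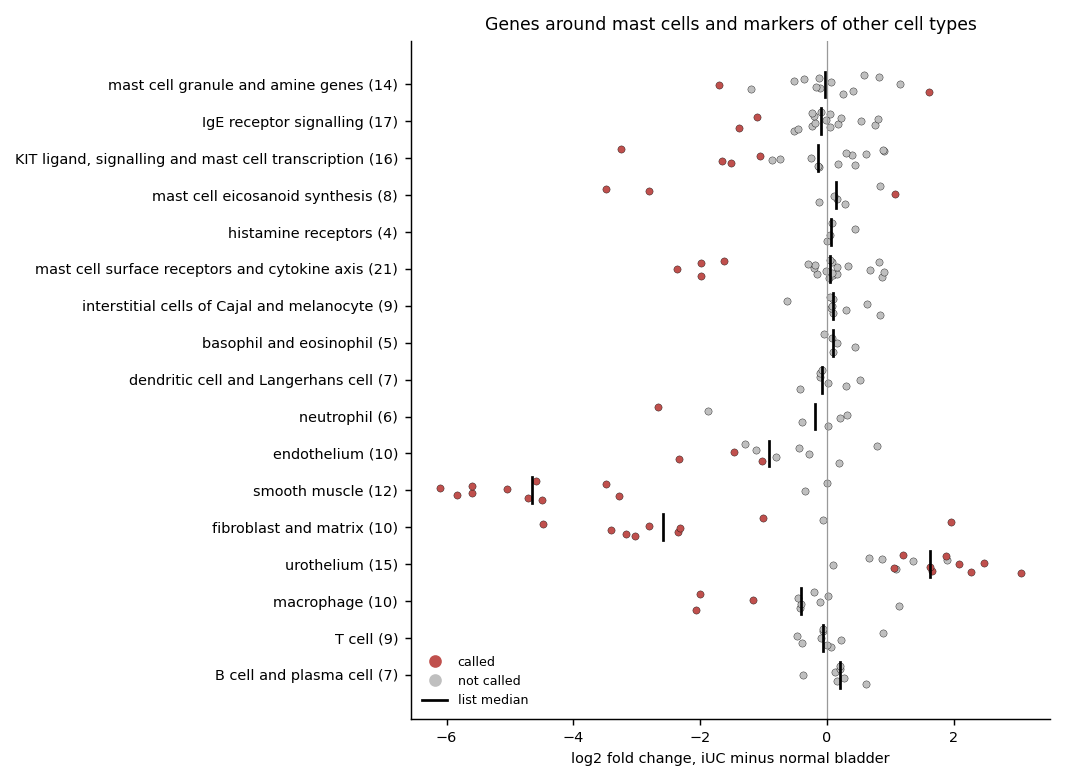
Log2 fold change (x axis, iUC minus normal bladder) of each measured gene of the mast cell pathway lists and of the marker lists of other cell types, with the number of genes in brackets. Red points are called, grey points are not, and black bars are list medians. Smooth muscle and matrix genes lie lowest, at medians of -4.65 and -2.58, while the medians of the 6 mast cell pathway lists lie between -0.14 and 0.14.

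Cells that share members with mast cells were read in the same way, beside 8.64% of all genes called lower and 3.68% called higher. None of 5 basophil and eosinophil genes was called, and their mean was -0.07 to 0.233 in iUC, against 0.0199, -0.101, -0.135 and -0.14 in the normal samples. None of 7 dendritic and Langerhans cell genes was called, although in humans these cells carry FCER1A, and their mean lay between -0.208 and 0.383 in the iUC samples, against 0.184, -0.0587, -0.0819 and 0.0385. Of 10 macrophage genes, AIF1, MRC1 and CD163 were called lower, with falls of 2.07, 2.00 and 1.16. With quantile normalization CD163 was at -0.86 and not called. Since the values are centred, no marker can be said to be absent.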

How the data were processed

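Total RNA of 18 iUC and 4 normal bladder samples was hybridised to Affymetrix Canine 2.0 arrays. The authors processed the arrays with GeneSpring GX. The deposited table holds log2 values for 43035 probe sets, each centred by the authors on its median over the 22 arrays (within 1e-06 of 0). How probes were summarised and arrays normalized was not given in the sources used here. Centred values keep no level, so no filter on low expression could be applied and detection cannot be judged. The number of arrays limits the precision.

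Without 111 control probe sets, 42924 entered the fit, and 29254 with a single symbol were averaged into 15115 genes. Names came from the platform annotation, and 27680 of these probe sets had their Entrez number in the RefSeq table, which changed 0 symbols. iUC and normal bladder were compared in R 4.3.3 by limma 3.58.1 without covariates. Correlations used exact permutations for 7 samples and 1e+05 for 11. The fit was checked on simulated data. iUC arrays were split at the widest gap in Tag signal. The members and gene lists were chosen with earlier results of these data known. All members were named, with the called genes of largest change in each list, a few set genes and the 10 genes most like CPA3, MS4A2 and HDC. Same-numbered samples came from different dogs, so their numbers pair nothing. Alternatives were other normalizations, probe set summaries, filters, tests, blocks and sample subsets. Tables and figures were made with Python 3.11.15, pandas 2.3.3 and matplotlib 3.10.9.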

Additional observations from a re-analysis of the deposited data

How the results depend on the processing

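FCER1A, CPA3, MS4A2 and CMA1 had log2 fold changes below 0 under all 19 alternatives, but not all of these could change the sign. The t-tests and the filter on the least variable genes leave a fold change as it is. The median of probe sets does so for CPA3, MS4A2 and CMA1. Under the block on label ending CMA1 was at -0.03. KIT, HDC and GATA2 changed sign in some and were called in none. The number of members called lower was 2, where 1306 of 15115 genes were. With 1 normal sample left out it was 2 to 3, where 967 to 1495 of all genes were. It was 4 with array weights, which added MS4A2 and CMA1, where 1344 of all genes were called lower. Without normal bladder replicates 3 and 4, a setting added once the values were known, it was 1, where 490 were. The 4 probe sets called lower were 3 to 4 with 1 normal sample left out, and 2 under the block on label ending or without replicates 3 and 4. With the replicate block, which rests on 4 same-numbered pairs of different dogs, 0 members and 0 of their probe sets were called by limma. Over all genes it called 349 lower. Of the members, 4 had an unadjusted p under 0.05. FCER1A was then at -2.15 (adjusted p = 0.0597), CPA3 at -1.87 (adjusted p = 0.0534) and MS4A2 at -0.92 (adjusted p = 0.0765). Deviations of the pairs correlated at -0.166 to 0.131.

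CPA3 also lost its call under the block on label ending. The 13 lower genes of the pathway lists were 11 to 13 with 1 normal sample left out, 4 with the replicate block and 8 without normal bladder replicates 3 and 4 and the iUC arrays of high Tag signal. In the same settings, main fit first, 1306, 967 to 1495, 349 and 442 of all genes were called lower. The higher count of 2 in the pathway lists ranged from 0 to 8. No pair of members passed the adjusted threshold over all iUC samples with the Tag split removed, or with quantile normalization in the arrays of low Tag signal. Over all genes 1306 were called lower and 556 higher, against 431 and 295 with quantile normalization, 490 and 68 without normal bladder replicates 3 and 4, 349 and 215 with the replicate block and 389 and 15 under the block on label ending. The share of these calls that were higher was 29.9%, 40.6% with quantile normalization, 42.8% with scaling to the 75th percentile, 44.2% with array weights and 46.7% without the iUC arrays of high Tag signal. It was 3.71% under the block on label ending and 12.2% without normal bladder replicates 3 and 4. With the Tag control mean as a covariate, added later, 775 genes were lower and 1075 higher, a share of 58.1%. Scaling to the 75th percentile moved the median of all genes to 0.20. The causes of these shifts were not tested.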

Other observations

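ENPP3, a surface enzyme used as an activation marker of human basophils and mast cells, was not called (log2 fold change 0.89, adjusted p = 0.434), but its values spread widely among the tumours. It ran from -0.29 to 6.43 in the iUC samples, with a median of 0.00, against -0.15, -0.16, 0.28 and 0.06 in the normal samples. The gene was singled out after its values were seen. None of the 7 members was at its highest in the same tumour, iUC replicate 2, except MS4A2, at 0.22, which lay below the lowest normal value of 0.48.

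No normal sample lay apart from the other normal samples of its gene in a test of the widest gap against the range (16 sets of values of the members tested).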
